A study of Homo sapiens with 18 samples.

Results

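The RNAs of 8 genes of the Wnt signalling pathway were examined for binding by QKI, a STAR-family RNA-binding protein that regulates splicing and RNA stability. The genes were NKD1, TCF7L1, TCF7L2, LEF1, AXIN2, CTNNB1, GSK3B and LRP6. Each was represented by 1 gene interval on hg19, and a deposited peak belonged to a gene when it lay in that interval on the gene's strand. By this rule 3039 of 879442 peaks listed in 9 immunoprecipitation (IP) libraries belonged to the 8 genes. Binding was measured by eCLIP: proteins are crosslinked to RNA in living cells by ultraviolet light, QKI is immunoprecipitated, and the RNA fragments that come with it are sequenced and compared with an input library. The cells were HUES6, an established human embryonic stem cell line, and 3 IP libraries were made at each of 3 stages of cardiomyocyte differentiation.

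Day 0 cells were pluripotent and kept in FTDA medium. Day 4 cells were cardiac progenitors, obtained with 1.5 uM CHIR and 1.5 ng/mL BMP4 for 24 h, then TS medium alone for 24 h, then TS medium with 100 nM C59 for 48 h. Day 8 cells followed the same schedule with a further period in C59 and later medium changes, and were collected once beating was seen. All groups were the same line, were crosslinked in the same way and were immunoprecipitated with the same anti-QKI antibody. CHIR is an inhibitor of GSK3 and C59 an inhibitor of Porcupine, the enzyme that prepares Wnt ligands for secretion, so both later groups had been exposed to agents that act on the Wnt pathway and day 0 cells had not. Whether the replicate libraries derive from separate cultures is not stated in the labels, and the p-values therefore measure only the spread between libraries, which may be technical.

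In canonical Wnt signalling, a ligand engages Frizzled and the co-receptor LRP6. This restrains a cytoplasmic complex of AXIN2 or its relative AXIN1, APC and GSK3B that otherwise marks β-catenin, the product of CTNNB1, for degradation. Stabilised β-catenin enters the nucleus and acts with the DNA-binding factors LEF1, TCF7L1 and TCF7L2, and AXIN2 and NKD1 are known targets that feed back on the pathway. The early rise and later block of this pathway are known to steer pluripotent cells through mesoderm to cardiac fate.

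The authors listed between 52462 and 187962 clusters per library, each with a log2 fold of IP over input and a −log10 p-value. A cluster with at least 4-fold enrichment and p at or below 0.001 is called a passing peak here. Passing peaks numbered 15508, 12695 and 13069 at day 0, 3030, 7775 and 3999 at day 4, and 6320, 3726 and 10966 at day 8. The 8 genes held 275 of all 77088 passing peaks, and 9.05% of their clusters passed, against 8.77% of all clusters. Sequencing depth is unknown, so counts are also given as shares, per 10000 clusters or per 10000 passing peaks of the same library. Peak lists hold no RNA levels: more binding per RNA and more RNA cannot be told apart in any result that follows.

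Binding was divided very unequally among the 8 genes. NKD1, a cytoplasmic inhibitor that acts through Dishevelled, held 117 of the 275 passing peaks (42.5%), in only 130 clusters. TCF7L2 held 82, CTNNB1 35, GSK3B 14, TCF7L1 13, LEF1 8 and LRP6 6. AXIN2, a scaffold of the degradation complex, held none. Of NKD1's clusters 90.0% passed, whereas the share was 10.3% for CTNNB1, 8.79% for LEF1, 6.15% for TCF7L2 and below 4% for GSK3B, LRP6 and TCF7L1. TCF7L2 and TCF7L1 had the most clusters, 1334 and 578, nearly all of them weak. The gene intervals differ in length, between 33.1 kb for AXIN2 and 272.5 kb for GSK3B, so these numbers describe each gene and were not ranked per length.

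**Figure D1:**
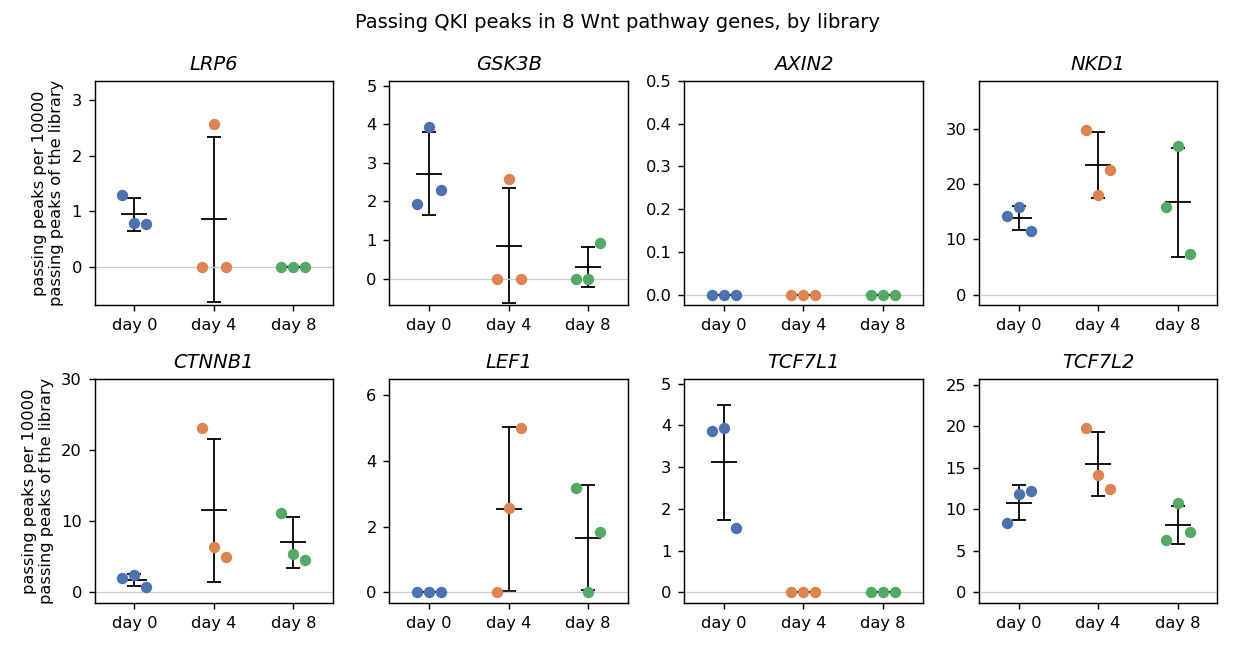
Share of passing peaks in each of the 8 genes, per 10000 passing peaks of the library, with 1 panel per gene and its own linear scale. Points are libraries at day 0, 4 and 8, the long horizontal lines are day means and the whiskers are 1 SD (n = 3); every later CTNNB1 library lies above the day 0 libraries, TCF7L1 is at 0 in the 6 later libraries, and AXIN2 is at 0 in all 9.

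LRP6, the co-receptor, had listed clusters in all 9 libraries and few that passed. Its clusters numbered 20, 29 and 34 at day 0, 23, 19 and 21 at day 4, and 5, 7 and 6 at day 8. Per 10000 clusters of the library, the average was 1.79 ± 0.17 at day 0, 2.82 ± 0.77 at day 4 and 1.02 ± 0.11 at day 8 (SD, n = 3 libraries each). The day 8 libraries were below every library of the other days on this scale. Over the whole table of listed clusters, LRP6 fell at day 8 against day 4, by 1.36 ± 0.31 on the log2 scale (SE; adjusted p = 0.00901, limma). Day 8 against day 0 did not pass, with a log2 difference of -0.73 ± 0.31 and an adjusted p of 0.091. Its 6 passing peaks fell in 2 regions, where a region is a run of overlapping passing peaks merged over all libraries. The region chr12:12284361-12284457 lay 15.4 kb before the end of the interval and passed in 3 of 3 day 0 libraries, 1 of 3 at day 4 and 0 of 3 at day 8. It also held the gene's only reproducible peak, at day 0, with an authors' log2 fold of 4.33. A reproducible peak is one from the authors' merged list for a day, which per its header required 4-fold enrichment and agreement of the 3 libraries by IDR, the irreproducible discovery rate. The other region, chr12:12273382-12273542, lay 4.42 kb before the end and passed in 1 library of day 0 and 1 of day 4.

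GSK3B, the kinase that phosphorylates β-catenin and the target of CHIR, had most of its passing peaks at day 0. They numbered 3, 5 and 3 at day 0, 0, 2 and 0 at day 4, and 0, 0 and 1 at day 8. Every later library was below all 3 of day 0 in this count, but as a share day 4 replicate 2, with 2.57 per 10000 passing peaks, was above day 0 replicates 1 and 3, with 1.93 and 2.30. Neither comparison with day 0 passed: the log2 difference was -0.66 ± 0.56 at day 4 (adjusted p = 0.403, limma) and -1.39 ± 0.56 at day 8 (adjusted p = 0.0558, limma). The day 8 difference was called with footprints (-1.44, adjusted p = 0.0489, limma) and with nucleotides covered (-1.54, 0.0389). It was also called, at an unchanged -1.39, without day 4 replicate 1 (adjusted p = 0.0478, limma) or 2 (0.0395). GSK3B reached the minimum for testing only through its day 0 peaks, so this filter favoured a fall. Listed clusters numbered 46, 84 and 98 at day 0, 15, 42 and 43 at day 4, and 12, 21 and 22 at day 8, and their shares did not pass either, with an adjusted p of 0.594 for day 4 and 0.142 for day 8 against day 0. The region chr3:119602725-119602896 passed in 3 of 3 day 0 libraries and in none of the other 6, and held a reproducible day 0 peak with a log2 fold of 4.30. Below the passing threshold it was still listed in 1 library of day 4 and 1 of day 8, both with log2 folds above 3. The most widely bound region of the gene, chr3:119633819-119633955, passed in 4 libraries drawn from all days and was listed in all 9. A further region at chr3:119765170-119765258 passed in 2 day 0 libraries and was listed in 8.

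AXIN2 carried hardly any QKI signal. Its clusters numbered 1, 6 and 7 at day 0, 0, 2 and 3 at day 4, and 0, 0 and 1 at day 8, and none passed. No difference between days passed in the fit of listed clusters (adjusted p of 0.762, 0.246 and 0.55 for day 4 against day 0, day 8 against day 0 and day 8 against day 4). AXIN2 was too sparse to be tested on passing peaks.

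NKD1 had the highest enrichment of the 8 genes and was bound at the same place in every library. It had 22, 20 and 15 passing peaks at day 0, 9, 14 and 9 at day 4, and 10, 10 and 8 at day 8. Day 0 libraries were all above the later ones in number, while as shares of passing peaks they averaged 13.8 ± 2.16 per 10000 at day 0, 23.4 ± 5.90 at day 4 and 16.6 ± 9.80 at day 8 (SD, n = 3 libraries each). On this scale every day 4 library was above every day 0 library, and the day 8 libraries overlapped both. None of the differences in share passed: the log2 difference was 0.77 ± 0.43 for day 4 against day 0 (adjusted p = 0.19), 0.13 ± 0.43 for day 8 against day 0 (0.844) and -0.65 ± 0.43 for day 8 against day 4 (0.379, limma). The result for NKD1 depended on what was counted. With overlapping peaks merged into footprints it was called higher against day 0, by 1.66 at day 4 (adjusted p = 0.0125) and 1.33 at day 8 (0.0255). By nucleotides covered it was called higher at day 4 only, by 1.19 (0.0335). With each library cut to the same number of strongest peaks the sign turned, to -0.66 at day 4 (0.0657) and -0.82 at day 8 (0.0205), the second a call lower.

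Nearly all NKD1 binding lay in 1 short stretch. Of its 117 passing peaks, 111 (94.9%) lay in chr16:50612929-50614052, which is 1124 nt, or 1.27% of the 88.4 kb interval, and starts 30.7 kb from the gene's start. The other 6 were all in day 0 libraries, downstream of it. Within the stretch the peaks formed 4 regions, each passing in all 9 libraries: chr16:50612929-50613368 (440 nt), chr16:50613403-50613492 (90 nt), chr16:50613526-50613619 (94 nt) and chr16:50613641-50614052 (412 nt). Gaps of 34, 33 and 21 nt without a passing peak separated them in every library. The first region was exceptionally wide: 33 of the 29356 regions of the series were as wide or wider, and the median region was 76 nt. Whether the stretch is exonic or intronic, and which sequence motifs it contains, was not analysed here.

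**Figure D2:**
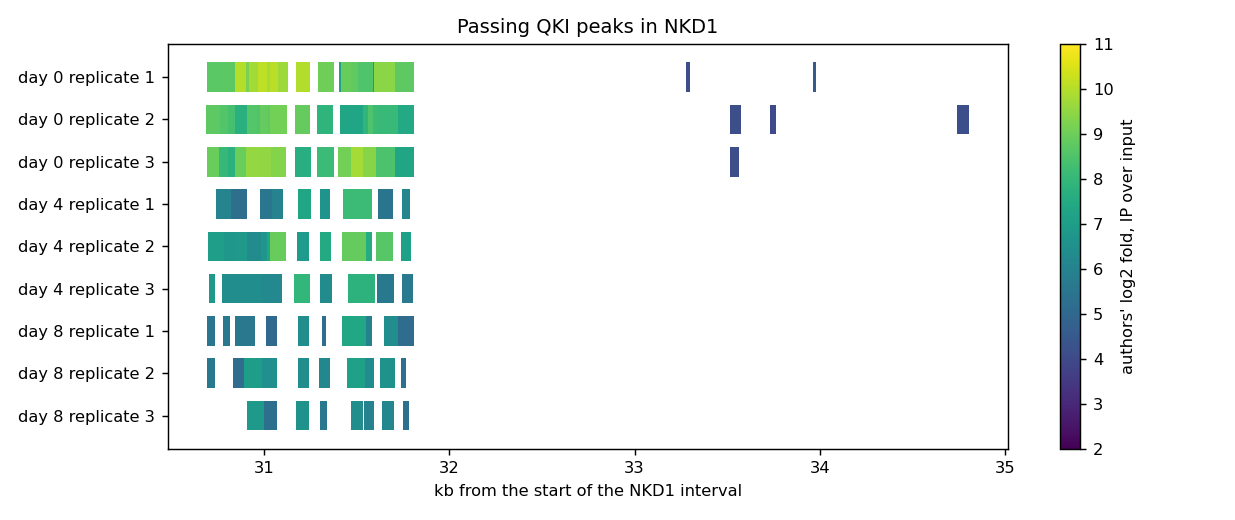
Passing QKI peaks along the bound part of NKD1 in each of the 9 libraries, 1 row per library. The horizontal axis is distance from the start of the gene interval in kb, and colour is the authors' log2 fold of IP over input; peaks fall in the same 4 regions in every row, and the day 0 rows also hold 6 peaks farther downstream.

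The enrichment of NKD1 was among the highest of each library. Its strongest peak had a log2 fold of 10.10, 9.10 and 9.78 in the day 0 libraries, 8.15, 8.91 and 7.93 at day 4, and 7.37, 7.14 and 6.86 at day 8. The 3 days did not overlap in this value, which is the authors' own and depends on the input of each library. Among the passing peaks of its library that peak ranked 79, 74 and 45 at day 0, 16, 29 and 22 at day 4, and 70, 65 and 241 at day 8. The lists differ in length, so these ranks were not compared between days. The strongest position also shifted in the merged lists. At day 0 the strongest reproducible peak was chr16:50613221-50613278, in the first region, with a log2 fold of 9.71. At day 4 it was chr16:50613692-50613841 with 8.36, and at day 8 chr16:50613662-50613789 with 7.09, both in the last region. Per library, the best fold of the last region minus that of the first was -0.67, -0.62 and 0.23 at day 0, 2.09, -0.05 and 0.93 at day 4, and 1.76, 0.16 and -0.47 at day 8. These overlapped between days, and an exact permutation test over the 280 partitions into 3 days gave p = 0.271, for a difference chosen after its values were seen.

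CTNNB1, which encodes β-catenin, was the only one of the 5 genes tested on passing peaks that was called higher after day 0. It had 3, 3 and 1 passing peaks at day 0, 7, 5 and 2 at day 4, and 7, 2 and 5 at day 8. CTNNB1 reached the minimum of 10 for testing only through its later peaks, so this filter favoured a rise. Per 10000 passing peaks of the library, the average was 1.69 ± 0.83 at day 0, 11.5 ± 10.1 at day 4 and 7.00 ± 3.55 at day 8 (SD, n = 3 libraries each). Every later library was above every day 0 library on this scale. Day 4 against day 0 passed, with a log2 difference of 2.42 ± 0.54 (adjusted p = 0.00351), and so did day 8 against day 0, with 1.93 ± 0.54 (adjusted p = 0.00749, limma), while day 8 against day 4 did not (-0.48 ± 0.54, adjusted p = 0.621). The day 4 mean rests largely on replicate 1, with 23.1 per 10000 beside 6.431 and 5.001 in the other two, and without it the log2 difference was 1.79 (adjusted p = 0.0143). Centred on the median locus, the differences were nearly as large, 2.33 ± 0.73 and 1.81 ± 0.73, but no longer called (0.0554 and 0.0779). With equal numbers of peaks per library they were 1.83 (0.172) and 0.77 (0.513).

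The listed clusters of CTNNB1 moved the same way by a smaller amount. They numbered 30, 47 and 54 at day 0, 33, 37 and 42 at day 4, and 36, 28 and 32 at day 8, which is 2.81 ± 0.17, 4.91 ± 0.60 and 5.51 ± 1.20 per 10000 (SD, n = 3 libraries each). The share rose by a log2 difference of 0.80 ± 0.24 at day 4 (adjusted p = 0.0291) and 0.96 ± 0.24 at day 8 (adjusted p = 0.0081, limma), both against day 0. The day 4 call was lost when any 1 of the 3 day 0 libraries was left out, although the log2 difference stayed at 0.84, 0.75 and 0.82 (adjusted p = 0.0562, 0.118 and 0.0848 without replicate 1, 2 and 3). It was also lost without day 4 replicate 1 (0.75, adjusted p = 0.072) or 2 (0.74, 0.0626). CTNNB1 peaks were scattered over 20 regions, 12 of which passed in 1 library, and none of its clusters lay in the last 20% of its interval. Where the transcripts of CTNNB1 end within that interval was not analysed here. The best supported region, chr3:41278993-41279081, passed in 3 day 0, 2 day 4 and 1 day 8 libraries and held a reproducible day 0 peak with a log2 fold of 4.44. This count of libraries was not scaled to each library's passing peaks, which were most numerous at day 0. It therefore cannot be set against the gene's share. Of the regions that came next, chr3:41247556-41247650 passed in 1 library of each day, and chr3:41280759-41280846 passed in 2 libraries of day 4 and 1 of day 8 and was listed in no day 0 library.

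LEF1, a nuclear partner of β-catenin, was the one gene of the 8 with no listed cluster at day 0. Its clusters numbered 0, 0 and 0 at day 0, 19, 29 and 30 at day 4, and 2, 6 and 5 at day 8. Every day 4 library was above every day 8 library. Against a floor of 3 clusters summed over day 0, its share was at least 52.5-fold higher at day 4 and at least 11.5-fold higher at day 8. Both passed in the fit of listed clusters (adjusted p = 1.18e-06 for day 4 and 2.57e-05 for day 8, limma). LEF1 reached the minimum for that fit only through its clusters of the later days, so this filter favoured a rise against day 0. Day 8 against day 4 was lower, with a ratio of summed shares of 0.22 (95% exact interval 0.112 to 0.398, counting error only) and a log2 difference of -2.16 ± 0.56 (adjusted p = 0.0186). That last call was lost, with log2 differences of similar size, without day 4 replicate 2 (-2.01, adjusted p = 0.0531), day 4 replicate 3 (-2.24, 0.0552) or day 8 replicate 1 (-1.82, 0.0634). The LEF1 clusters were mostly weak: 0, 2 and 2 passed at day 4 and 2, 0 and 2 at day 8, and none was reproducible. The passing peaks fell in only 2 regions, chr4:109062166-109062261 and chr4:109082242-109082346, which lay 27.9 kb and 7.77 kb from the gene's start. Each passed in 2 of 3 libraries at day 4 and 2 of 3 at day 8 and was listed in all 6 later libraries.

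**Figure D3:**
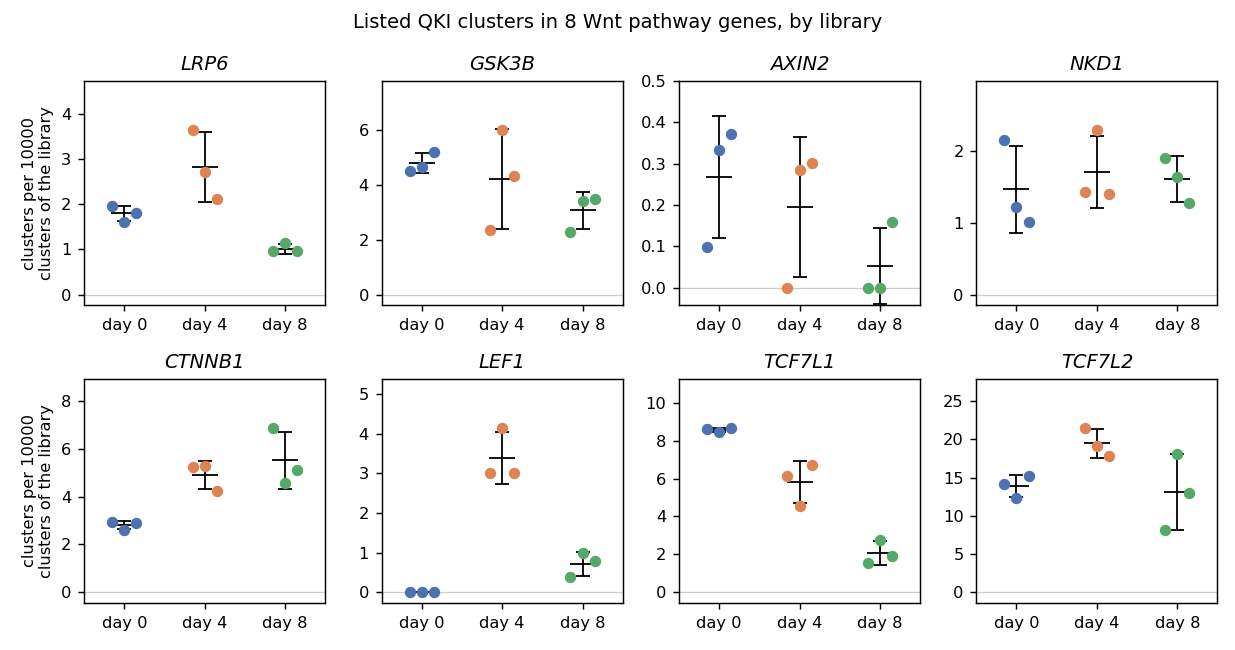
Share of listed clusters in each of the 8 genes, per 10000 clusters of the library, with 1 panel per gene and its own linear scale. Points are libraries at day 0, 4 and 8, the long horizontal lines are day means and the whiskers are 1 SD (n = 3); LEF1 is at 0 in the 3 day 0 libraries and above 0 in the other 6, and TCF7L1 is highest at day 0.

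TCF7L1, which mainly represses Wnt targets in pluripotent cells, went the other way. Its clusters numbered 88, 152 and 163 at day 0, 39, 32 and 67 at day 4, and 8, 17 and 12 at day 8. As shares these averaged 8.58 ± 0.12 per 10000 at day 0, 5.82 ± 1.12 at day 4 and 2.07 ± 0.64 at day 8 (SD, n = 3 libraries each), and no 2 days overlapped. The share fell by 2.04 ± 0.26 on the log2 scale at day 8 against day 0 (adjusted p = 3.52e-05) and fell by 1.47 ± 0.26 at day 8 against day 4 (adjusted p = 0.0015, limma). Day 4 against day 0 did not pass, at -0.57 ± 0.26 (adjusted p = 0.139). Passing peaks numbered 6, 5 and 2 at day 0 and 0 in all 6 later libraries. With a floor of 3 peaks summed over a day, this made the share of passing peaks at least 2.21-fold lower at day 8, and at least 1.55-fold lower at day 4, than at day 0. TCF7L1 reached the minimum for testing passing peaks only through those of day 0, so this filter favoured a fall. The day 8 difference passed in the fit of passing peaks (adjusted p = 0.0109, limma) and was lost with a pseudocount of 2 (0.476). The day 4 difference did not pass (0.0612), though it did with nucleotides covered (0.0395) or with no minimum of peaks (0.0308). It also passed without day 8 replicate 2 (0.0461) or 3 (0.0388). One region, chr2:85514200-85514362, passed in 3 of 3 day 0 libraries and held the reproducible peak of the gene, with a log2 fold of 3.94. Regions chr2:85373153-85373205 and chr2:85378613-85378668 each passed in 2 day 0 libraries.

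TCF7L2, the third of the nuclear factors, combined a large number of weak clusters with a few constant sites. Its clusters numbered 144, 222 and 285 at day 0, 136, 134 and 177 at day 4, and 43, 111 and 82 at day 8. Passing peaks numbered 13, 15 and 16 at day 0, 6, 11 and 5 at day 4, and 4, 4 and 8 at day 8. As shares of passing peaks, every day 4 library was above every library of day 0 and day 8, which overlapped each other. None of the comparisons passed on passing peaks: the log2 difference was 0.57 ± 0.39 for day 4 against day 0 (adjusted p = 0.301), -0.34 ± 0.39 for day 8 against day 0 (0.543) and -0.90 ± 0.39 for day 8 against day 4 (0.152, limma). With equal numbers of peaks per library, TCF7L2 was called higher against day 0 on both later days, by 1.25 at day 4 (adjusted p = 0.0222) and by 0.97 at day 8 (0.0402), where the sign turned. None passed on listed clusters either, with adjusted p-values of 0.171, 0.7 and 0.109.

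Along TCF7L2 the passing peaks gathered in 2 places. Joining regions less than 5 kb apart, chr10:114811084-114815604 held 30 of the 82 and chr10:114918225-114923161 held 29, the first near the middle of the interval and the second between 95.8% and 98.0% of its length. Each place contained 1 region that passed in all 9 libraries. The stronger, chr10:114918933-114919076, lay 8.36 kb before the end of the interval, and its best log2 fold was 7.81, 5.91 and 5.74 at day 0, 5.87, 7.04 and 4.08 at day 4, and 6.16, 6.01 and 6.39 at day 8. The days overlapped, with no day apart from the others. The other, chr10:114814376-114814466, had 4.88, 4.72 and 4.10 at day 0, 2.70, 4.80 and 5.10 at day 4, and 4.23, 6.01 and 5.96 at day 8. The only 2 reproducible TCF7L2 peaks of day 4, and likewise of day 8, lay in these regions. The strongest of each day was in the first of them, where the authors' log2 fold was 6.50 (day 0), 5.82 (day 4) and 6.19 (day 8). A region nearby, chr10:114920515-114920784, passed in 8 libraries.

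**Figure D4:**
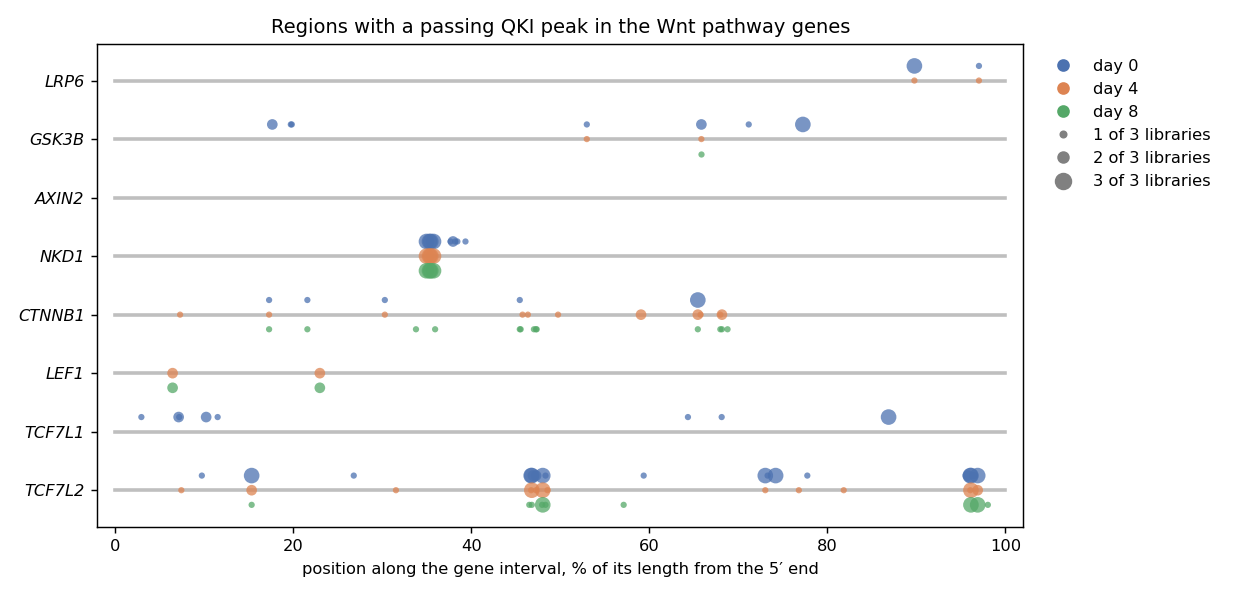
Bound regions along the 8 gene intervals, with position as percent of interval length from the 5′ end, 1 line per gene, colour for the day and dot size for the number of that day's 3 libraries in which the region passed. The 6 regions with the largest dots on all 3 days are 4 in NKD1, between 34.96% and 35.75% of its length, and 2 in TCF7L2, at 48.0% and 96.1%.

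Across the whole table, the test of passing peaks covered 5 of the 8 genes among 2068 loci with at least 10 passing peaks, the other loci being passing peaks outside the intervals joined within 20 kb on 1 strand. For day 4 against day 0, 1 of the 5 (CTNNB1) was called, as higher, against 22.4% of all loci tested (14.2% higher and 8.22% lower; 463 loci, or 238 to 570 with 1 library left out), and their median log2 difference was 0.57 beside 0.29 over all loci. For day 8 against day 0, 2 of the 5 were called, CTNNB1 higher and TCF7L1 lower, against 34.9% of all loci (15.2% higher and 19.7% lower), with a median of -0.34 beside 0.05. TCF7L1 and GSK3B were among the 5 only through their day 0 peaks. CTNNB1 was among them only through its peaks of the later days, since its day 0 peaks alone were below the minimum. The same filter applied to all loci. No Wnt gene was called for day 8 against day 4, against 10.6% of all loci (5.90% higher and 4.74% lower). There limma gave 1 of the 5 an unadjusted p under 0.05. The differences carry an offset from the library totals, since 0.5 was added to every count. TCF7L1, with 0 passing peaks at both day 4 and day 8, still had a log2 difference of -0.48 between them. With no minimum of peaks, the median over all loci was 1.06 for day 4 against day 0. The exact permutation test called 0 loci in every comparison, because its smallest p with 3 libraries a day is 0.1.

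All 8 genes were among the 9122 loci tested on listed clusters. LEF1 and CTNNB1 were called higher at day 4 against day 0, beside 21.7% of all loci called (8.98% higher and 12.7% lower). For day 8 against day 0 these same genes were higher and TCF7L1 was lower, beside 31.3% (13.5% higher and 17.8% lower). LEF1, TCF7L1 and LRP6 were lower at day 8 against day 4, beside 12.9% (6.19% higher and 6.71% lower). The median over the 8 genes was 0.39, -0.39 and -0.72 in the 3 comparisons, beside -0.03, -0.12 and -0.06 over all loci. LEF1 was among these loci only through its clusters of the later days. Comparisons that share a day share its libraries. Whether the counts of Wnt genes differ from these backgrounds was not tested.

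**Figure D5:**
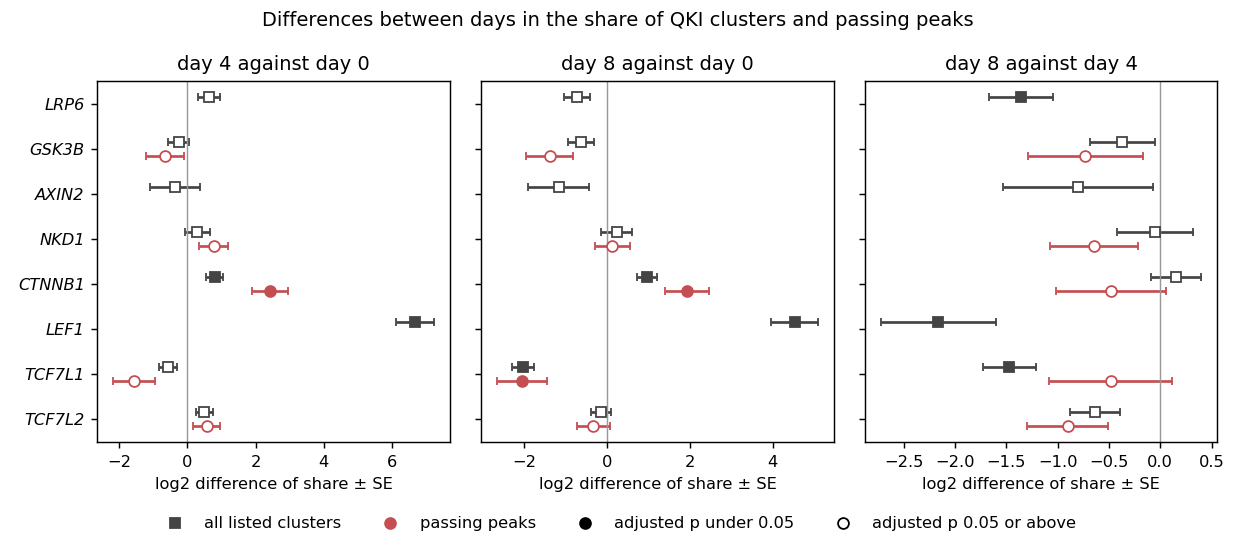
Log2 differences in share (later day minus earlier day) for the Wnt genes in the fits of passing peaks and of listed clusters, with bars of 1 SE. The vertical line is no difference; LEF1 lies farthest to the right for both later days against day 0, and TCF7L1 farthest to the left for day 8 against day 0 in both fits.

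The 8 genes held 77 of the 29356 regions of the series, and 51.9% of them passed in 1 library, against 52.3% of all regions. In all 9 libraries 6 of the 77 passed (7.79%), against 1.85% of all regions. Of these 6, 4 were the neighbouring regions of the NKD1 stretch, 34, 33 and 21 nt apart, and 2 lay in TCF7L2. The 7.79% thus counts 1 bound stretch 4 times and does not describe the 8 genes in general. Regions were then counted that passed in every library of one day and in none of another. In this sense 3 Wnt regions passed at day 0 and not at day 4, in TCF7L1, TCF7L2 and GSK3B, against 9.11% of all regions. The count of day 0 and not day 8 was 7 (9.09% of the Wnt regions, against 9.45% of all), made up of 4 regions in TCF7L2 and 1 each in TCF7L1, GSK3B and LRP6. The first count became 8 without day 0 replicate 3 and 7 without day 4 replicate 2, and the second became 12 without day 0 replicate 3. At an 8-fold threshold they were 0 and 2. Both were 0 when the other day was to hold no listed cluster of any fold, so each of these regions was still listed below the threshold in some library of the later day. No region was gained with all libraries in: 0 passed at day 4 and not at day 0 (0.262% of all regions did), and 0 at day 8 and not at day 0 (1.68%). Between the later days there were 0 in both directions, against 1.78% for day 8 and not day 4 and 0.194% for day 4 and not day 8. No test was made on these counts, and day 0 libraries had the most passing peaks.

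Reproducible peaks lay mostly in NKD1 and TCF7L2 on every day. At day 0, 28 of 7778 reproducible peaks (0.36%) lay in 6 of the 8 genes, 14 of them in NKD1 and 10 in TCF7L2, with 1 each in CTNNB1, GSK3B, LRP6 and TCF7L1. The single peaks of these last genes ranked 4321, 4771, 4669 and 5753 by log2 fold in that list, which was far longer than the later lists. At day 4 there were 13 of 947 (1.37%), 11 in NKD1 and 2 in TCF7L2, and at day 8 there were 8 of 1576 (0.508%), 6 in NKD1 and 2 in TCF7L2. All 13 day 4 peaks shared 1 nt or more, strand for strand, with a peak of the day 0 list, against 86.0% of all day 4 peaks. Likewise all 8 day 8 peaks overlapped one of day 0, against 64.7% of all, and one of day 4, against 42.3%. In the other direction, 57.1% of the 28 day 0 peaks met one from day 4, against 15.4% of all day 0 peaks, and 42.9% met one from day 8, against 17.1% of all. Since most of these peaks crowd into the NKD1 stretch, they are not independent of each other. Outside NKD1 there were 14 such day 0 peaks, of which 2 met a day 4 peak and 2 one of day 8.

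The loci whose share of passing peaks ran most like that of NKD1 over the 9 libraries were chr1:156213290-156214166 (Pearson r = 0.961), chr18:53561675-53603697 (0.952) and chr10:1153454-1156173 (0.943). They were the highest of all tested loci by this measure, the points share each library's total of passing peaks, and these loci were not named for lack of an hg19 annotation here.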

How the data were processed

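QKI eCLIP peak lists of 9 IP libraries, 3 per day, were analysed. Inputs, also 9, entered only through the authors' scores. Per the submitters' processing notes, cutadapt, STAR and SAMtools were used with hg19; the peak caller is not given in the sources used here. Per the file headers, the lists are input-normalized, with 1 list of clusters per library and 1 merged list per day, filtered at 4-fold enrichment and by IDR across the 3 libraries. The authors deposited each peak's log2 fold of IP over input and its −log10 p-value, capped at 400. Depth is unknown, and intervals and floors (3 counts) cover counting error only.

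The 8 gene intervals came with the choice of genes, and the members and lists were chosen with earlier results of these data known. Peaks outside the intervals were joined within 20 kb on the same strand into loci. Peaks per locus and library were turned into log2 of (peaks + 0.5) over (library total + 1) × 10000 and fitted with limma 3.58.1 in R 4.3.3 (lmFit, eBayes with trend) over all 9 libraries, for loci with at least 10 peaks, two-sided, Benjamini-Hochberg adjusted over the whole table at 0.05. The main count was passing peaks, and all listed clusters were an alternative. The procedure was tested on simulated data, where it missed the smallest changes tried and many larger ones. Among the larger changes it recovered falls far less often than rises of the same size. A difference that did not pass, above all a fall, is therefore weak evidence of no change. Replicate numbers were not used to pair the libraries in the main fit.

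All 8 genes are named, with up to 3 regions each, those passing in the most libraries and then of highest log2 fold, the strongest reproducible peak per day, and the 3 loci most correlated with the gene with most passing peaks. Other statistics used Python 3.11.15 and scipy 1.17.1. A wider Wnt gene list, exon and intron annotation, peak sequences and motifs were planned or of interest but not analysed here.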

Additional observations from a re-analysis of the deposited data

How the results depend on the processing

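The number of Wnt genes called on passing peaks was 1 for day 4 against day 0, 2 for day 8 against day 0 and 0 for day 8 against day 4. For day 4 against day 0 it was 2 with all listed clusters or footprints, 3 with nucleotides covered or no minimum of peaks, 0 after centring on the median locus or by exact permutation test, and 1 to 2 with 1 library left out. For day 8 against day 0 it was 1 with an 8-fold threshold, a pseudocount of 2, at least 20 peaks or centring, 4 with footprints, 0 by permutation and 2 to 3 with 1 library left out. With the 8-fold threshold or at least 20 peaks TCF7L1 was not tested, so its call was not lost there. A pseudocount of 2 did lose the TCF7L1 call, and centring lost that of CTNNB1. For day 8 against day 4 the number called was 3 with all listed clusters. The permutation test could not pass, since 0.1 is its smallest p. On all listed clusters, the 2 called for day 4 against day 0 were 1 to 2 with 1 library left out. The counts of day 0 and not day 4 regions ran from 3 to 8 and of day 0 and not day 8 regions from 7 to 12 with 1 library left out, and were 0 and 2 at 8-fold and 0 when no cluster was allowed in the later day; day 4 and not day 0, day 8 and not day 0, and day 4 and not day 8 ran from 0 to 2, 0 to 2 and 0 to 1.

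The sign of a log2 difference that was not called turned in these cases, of which 2 were calls under the alternative, NKD1 and TCF7L2 at day 8 with equal numbers (adjusted p = 0.0205 and 0.0402). For NKD1 it was -0.66 at day 4 and -0.82 at day 8, against day 0, with equal numbers of peaks, and -0.0004 at day 8 after centring; with 1 library left out, day 8 against day 0 ran from -0.31 to 0.62. TCF7L2 at day 8 against day 0 was 0.0588 at 8-fold and 0.97 with equal numbers, GSK3B at day 4 against day 0 was 0.44 with a pseudocount of 2, and CTNNB1 at day 8 against day 4 was 0.16 on all listed clusters and -0.85 to 0.15 with 1 library left out. On all listed clusters, AXIN2 at day 4 against day 0 was 0.18 with a pseudocount of 2. There, with 1 library left out, the range was -0.82 to 0.36 for AXIN2 and -0.56 to 0.10 for GSK3B at day 4 against day 0, -0.41 to 0.16 for TCF7L2 at day 8 against day 0, and -0.18 to 0.17 for NKD1 and -0.012 to 0.28 for CTNNB1 at day 8 against day 4. The cause was not tested.

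Over all loci, 463, 721 and 220 were called in the 3 comparisons, and 238 to 570, 549 to 814 and 146 to 219 with 1 library left out. They were 204, 579 and 125 after centring, 892, 536 and 57 with a pseudocount of 2, 4458, 3158 and 242 with no minimum, 1976, 2859 and 1177 on all listed clusters, 187, 287 and 131 with at least 20 peaks and 125, 207 and 73 with equal numbers. With a pseudocount of 2 the split for day 4 against day 0 was 870 higher and 22 lower, and with equal numbers 34 and 91, against 293 and 170. For day 8 against day 0 a pseudocount of 2 gave 458 and 78, against 314 and 407, and for day 8 against day 4 equal numbers gave 53 and 20, against 122 and 98. Fitting a replicate block left the Wnt counts at 1, 2 and 0. Same-numbered libraries of different days correlated between -0.148 and 0.311, and differently numbered ones between -0.439 and 0.404, in deviations from the day mean. These ranges cannot decide whether the numbers pair the libraries. Depth is unknown, and genes with few peaks, such as AXIN2, limit what can be shown.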
